A study of Mus musculus with 6 samples.

Results

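The inflammasome genes considered here were Nlrp3, Pycard, Casp1, Casp4, Il18, Il1b, Naip2, Naip5, Naip6 and Nlrc4, taken by symbol from a table of 19436 genes in which each of the 10 had a row. Their RNA was compared between wild type and -77-/- erythroid precursors, sorted from C57BL/6 mouse fetal livers at E14.5 by a medium level of CD71, through which cells take up transferrin-bound iron, and by the absence of Ter119, which appears on maturing red cells. Each genotype had 3 libraries, made from 10 ng of total RNA and sequenced as single reads of 50 nt. The -77 enhancer lies upstream of the gene Gata2, a transcription factor gene of blood stem and progenitor cells, and -77-/- embryos lack it on both alleles, while no treatment was given to either group. The labels name no litter or sex and do not say whether each library came from its own embryo, so p-values measure the spread between these libraries, which may be technical.

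Inflammasomes are protein complexes that form in the cytosol, mostly of macrophages and other myeloid cells, when a sensor meets a microbial product or a sign of cell damage. The sensor recruits the adaptor ASC and caspase-1, which then cuts the precursors of interleukin-1 beta and interleukin-18 and the pore-forming protein gasdermin D, so that the cytokines leave the cell and the cell may die. The RNA of a sensor or an enzyme says nothing on whether the complex assembled.

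Sensors, the adaptor, caspases and Il1b had more RNA in -77-/- than in wild type precursors, in which mean levels ran from 1.25 normalized reads for Il18 to 415 for Naip2. Of the 10 genes, 9 passed the test as higher in -77-/-, where 16.9% of all 15821 genes tested did so, and 1, Il18, did not pass. With edgeR on reads recovered from the values 8 of the 10 passed (background 14.6%), and 9 did in the authors' deposited table (background 16.4%). None had a negative log2 fold change. In 10 of 10 genes the 3 -77-/- libraries lay above the 3 wild type libraries, against 25.0% of genes tested. The median log2 fold change was 3.32, with a range of 0.89 to 5.35, beside a median of 0.10 over all genes tested. Values are normalized reads, that is reads per gene divided by the authors' size factor for the library. Each fold change sets -77-/- against wild type, as log2(value + 1), and was tested with limma, and adjusted p-values are over all genes tested, with a threshold of 0.05. All 10 reached the required mean of 10 in the higher genotype, Il18 and Il1b through -77-/- alone.

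**Figure D1:**
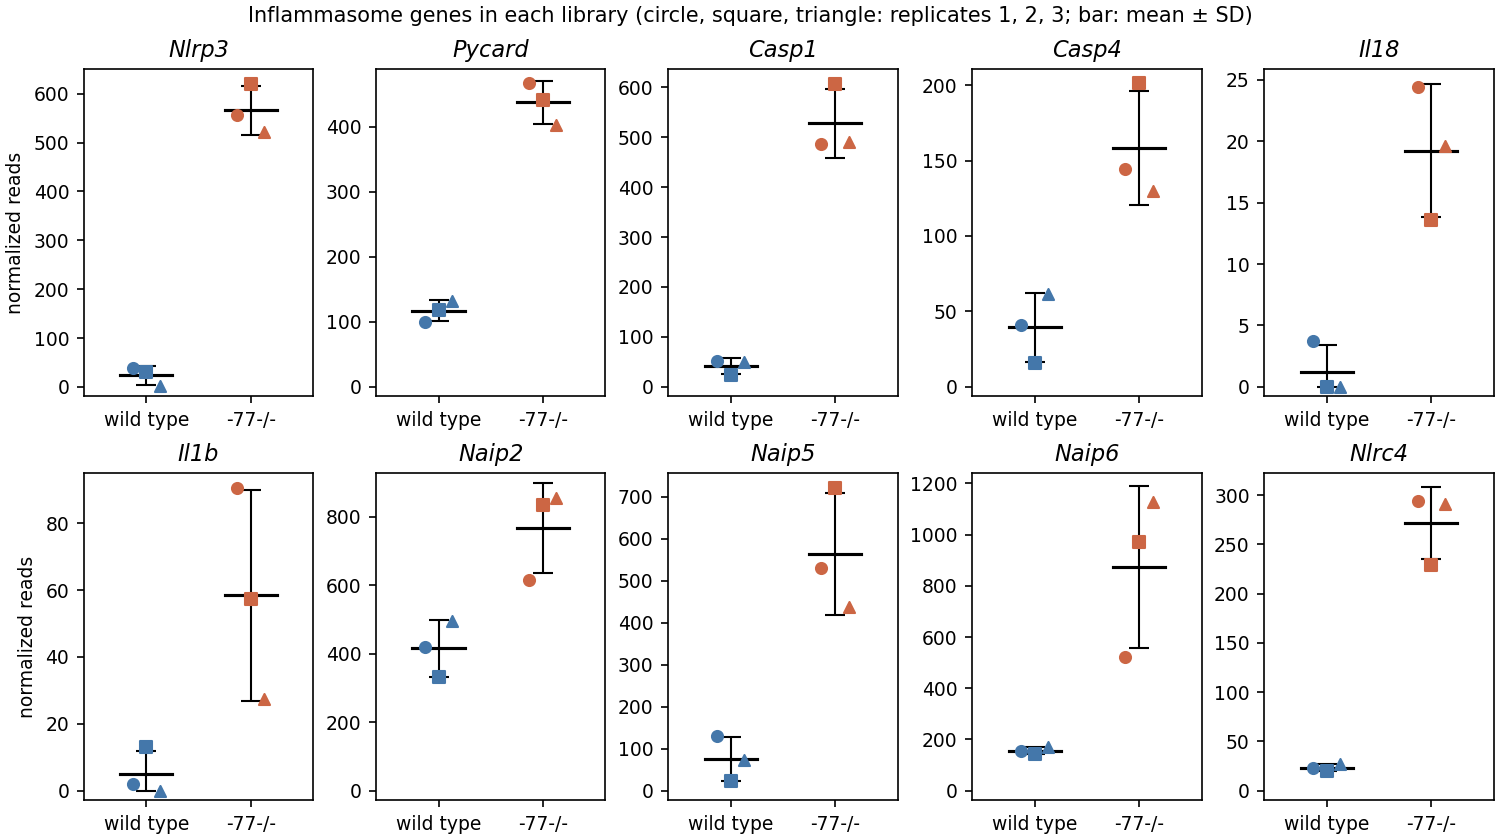
Normalized reads of each inflammasome gene (linear axes, 1 panel per gene) in the 3 wild type libraries in blue and the 3 -77-/- libraries in red, with the mean and SD as bars. In each panel the lowest -77-/- library stands above the highest wild type library, with the smallest ratio for Naip2, at 496 against 616.

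The libraries held 16516338 to 20468899 reads each, and 3 reads, the floor used here, correspond to 2.56 to 3.42 normalized reads. As the check of the edited locus, Gata2 stood at 128, 87.8 and 61.5 normalized reads in the wild type libraries against 74.2, 26.2 and 34.2 in the -77-/- libraries, and the groups overlapped (log2 fold change -1.10, limma adjusted p = 0.183). Of 15 erythroid markers, 15 were lower in -77-/- (background 15.2% of genes), and their summed level was 55448 to 59364 in wild type and 5797 to 10133 in -77-/-. The defining markers of the labelled cell type were thus present in both groups but much lower in -77-/-. Of 15 monocyte and macrophage markers, 14 were tested and 13 were higher (background 16.9% of genes). Their sums were 1951 to 3271 in wild type and 30542 to 41935 in -77-/-, while Lyz1 was at 0 in each wild type library. Their part in the results for the inflammasome genes was not tested. In sorted bulk RNA, more cells of a type and more RNA per cell cannot be told apart.

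Nlrp3, the sensor that responds to membrane damage and ion efflux, had the largest log2 fold change of the 10 genes, except with a pseudocount of 0.1, where Il18 (5.80, not passing) stood above it (5.63). In wild type replicates 1 to 3 it had 39.4, 29.9 and 1.14 normalized reads, whereas the -77-/- replicates held 557, 619 and 521. The value of 1.14 is a single read. Wild type replicate 3 stood far below the other wild type libraries, whereas the -77-/- libraries were close together. Mean levels were 23.5 ± 19.9 and 566 ± 49.8 (± gives the SD, with n = 3), a 24.1-fold ratio of means and a log2 fold change of 5.35 with an SE of 1.08 (adjusted p = 0.0079 in limma). This exceeded the log2 fold change of 99.4% of genes tested. With wild type replicate 3 left out, the log2 fold change was 4.0 (limma adjusted p = 7.3e-07), and in the authors' deposited table it was 4.59.

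Pycard encodes ASC, the adaptor that joins sensors to caspase-1. It had 100.4, 119 and 132 normalized reads in the wild type replicates and 468, 441 and 403 in the -77-/- replicates. Libraries of a genotype lay close together and the genotypes were far apart. The means of 117 ± 16.0 and 437 ± 32.6 gave a 3.73-fold ratio (log2 fold change 1.90 with an SE of 0.28, adjusted p = 8.3e-05 in limma). In GENCODE M21 a transcript on the opposite strand overlaps Pycard. Of all its 50-base windows 11.7% match another gene, and of its coding windows alone 41.9%. The strand setting of the counting is not given in the sources used here.

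Caspase-1, the protease of the complex, had the smallest adjusted p of the 10 genes. Casp1 values were 51.6, 22.9 and 50.1 in the wild type replicates against 486, 607 and 489 in the -77-/- replicates. The lowest -77-/- library was several times the highest wild type library. The means were 41.6 ± 16.1 and 527 ± 68.7, a 12.7-fold ratio (log2 fold change 3.71 with an SE of 0.39, adjusted p = 3.4e-06 in limma).

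Casp4 encodes the mouse protease also called caspase-11, which binds bacterial lipopolysaccharide in the cytosol and cuts gasdermin D without a separate sensor. Its values were 41.3, 15.97 and 61.5 in the wild type replicates and 144, 201 and 129.8 in the -77-/- replicates. Wild type replicate 2 was the low library and -77-/- replicate 2 the high one, and the genotypes did not overlap. The means were 39.6 ± 22.8 and 158 ± 37.8, a 4.0-fold ratio (log2 fold change 2.14 with an SE of 0.57, adjusted p = 0.0094 in limma). Without -77-/- replicate 2 the call ended (log2 fold change 1.96, limma adjusted p = 0.0654, with a range of 0.0026 to 0.0654 over the alternatives).

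The NAIP proteins are receptors of bacterial proteins in the cytosol and work through Nlrc4. In the mouse Naip5 and Naip6 bind flagellin, and Naip2 binds the inner rod of bacterial secretion systems. Nlrc4, the shared partner that then oligomerises, had 22.5, 19.96 and 27.4 normalized reads in the wild type replicates and 294, 229 and 291 in the -77-/- replicates. Both groups were tight. The means were 23.3 ± 3.75 and 271 ± 36.4, an 11.7-fold ratio (log2 fold change 3.49 with an SE of 0.47, adjusted p = 4.0e-05 in limma).

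The 3 Naip genes are near copies, which bears on how reads of 50 nt can be assigned to them. Over the aligned coding bases Naip5 and Naip6 were 97.0% identical, Naip2 and Naip5 89.8%, and Naip2 and Naip6 89.5%, with identical runs of up to 229, 140 and 115 bases. Of all 50-base windows in their GENCODE M21 transcripts, 19.1% for Naip2, 36.9% for Naip5 and 21.5% for Naip6 also occur in another gene, mostly another Naip gene or Naip pseudogene. For Nlrp3, Casp1, Il18 and Il1b the share was 0%, for Casp4 0.240% and for Nlrc4 1.09%. Among coding windows alone the share was higher for the Naip genes, at 21.6% for Naip2, 43.9% for Naip5 and 34.0% for Naip6. Cutting the alignment into 39 gap-free stretches of 100 bases, the stretch where Naip2 and Naip5 are most alike is shown first, coding bases 501 to 600 of each. There a read cannot tell Naip2 and Naip5 apart, while Naip6 differs from both at 2 bases. Capitals mark bases that differ from Naip5, and the sequences are those of GENCODE M21 (GRCm38), chromosome 13.
Naip2: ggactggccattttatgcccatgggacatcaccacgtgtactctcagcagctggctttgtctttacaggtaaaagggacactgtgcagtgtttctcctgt
Naip5: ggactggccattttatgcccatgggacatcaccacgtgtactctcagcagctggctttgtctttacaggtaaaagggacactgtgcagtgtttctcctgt
Naip6: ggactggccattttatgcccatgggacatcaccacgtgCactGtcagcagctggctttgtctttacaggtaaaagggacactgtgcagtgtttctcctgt
The stretch where they are least alike, coding bases 2998 to 3097 of Naip2 and 2866 to 2965 of Naip5 and Naip6, shows where Naip2 reads are distinct while Naip5 and Naip6 still differ at only 3 bases.
Naip2: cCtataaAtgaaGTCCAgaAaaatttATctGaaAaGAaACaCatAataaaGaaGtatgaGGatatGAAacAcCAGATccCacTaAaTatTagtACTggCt
Naip5: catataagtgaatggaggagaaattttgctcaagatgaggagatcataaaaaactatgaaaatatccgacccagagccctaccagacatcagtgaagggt
Naip6: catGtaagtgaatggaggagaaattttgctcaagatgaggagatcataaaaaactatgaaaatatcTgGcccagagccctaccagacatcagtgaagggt

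Naip2 had the smallest log2 fold change of the 10 genes, here and in the 14 alternatives. It had 419, 331 and 496 normalized reads in the wild type replicates and 616, 833 and 854 in the -77-/- replicates. It was well above the floor in each wild type library, and the gap between the genotypes was narrow. The means were 415 ± 82.3 and 768 ± 132, a 1.85-fold ratio (log2 fold change 0.89 with an SE of 0.21, adjusted p = 0.0048 in limma).

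Naip5 was uneven in wild type, at 129, 23.9 and 72.9 in replicates 1 to 3, and had 529.7, 721 and 438 in the -77-/- replicates. The means were 75.5 ± 52.8 and 563 ± 145, a 7.46-fold ratio (log2 fold change 3.15 with an SE of 0.53, adjusted p = 8.5e-04 in limma). The low library was wild type replicate 2, without which the log2 fold change was 2.49. Naip6 had 153, 144 and 172 in the wild type replicates and 522, 970.2 and 1129 in the -77-/- replicates. Here wild type was even and -77-/- replicate 1 was the low library of its group. The means of 156 ± 14.48 and 873 ± 315 gave a 5.59-fold ratio (log2 fold change 2.41 with an SE of 0.28, adjusted p = 1.0e-05 in limma).

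Some windows of Naip2, Naip5 and Naip6 also occur in Naip1 and Naip3, and adding the 3 genes does not settle reads shared with those. The sum of the 3 genes does not depend on how reads were divided among these 3. It was 702, 499 and 741 in the wild type replicates and 1668, 2525 and 2420.4 in the -77-/- replicates, with a log2 fold change of 1.76 with an SE of 0.19 (adjusted p = 5.6e-06 in limma) when the sum took the place of the single genes. Naip2 made up 59.8%, 66.4% and 66.9% of the sum in the wild type replicates and 37.0%, 33.0% and 35.3% in the -77-/- replicates, without overlap. The Naip5 share was 18.4%, 4.8% and 9.85% against 31.8%, 28.6% and 18.1%, and -77-/- replicate 3 fell within the wild type range. The Naip6 share was 21.8%, 28.8% and 23.2% against 31.3%, 38.4% and 46.6%. The log2 ratio of Naip5 to Naip2 went from -2.75 ± 1.05 to -0.46 ± 0.43, and that of Naip6 to Naip2 from -1.40 ± 0.17 to 0.13 ± 0.33. Each gave an exact two-sided permutation p of 0.1, the smallest that 3 against 3 libraries allow (0.15 adjusted over 3 ratios). The log2 ratio of Naip5 to Naip6 overlapped between genotypes, at -1.35 ± 1.18 and -0.59 ± 0.71 (exact permutation p = 0.5).

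**Figure D2:**
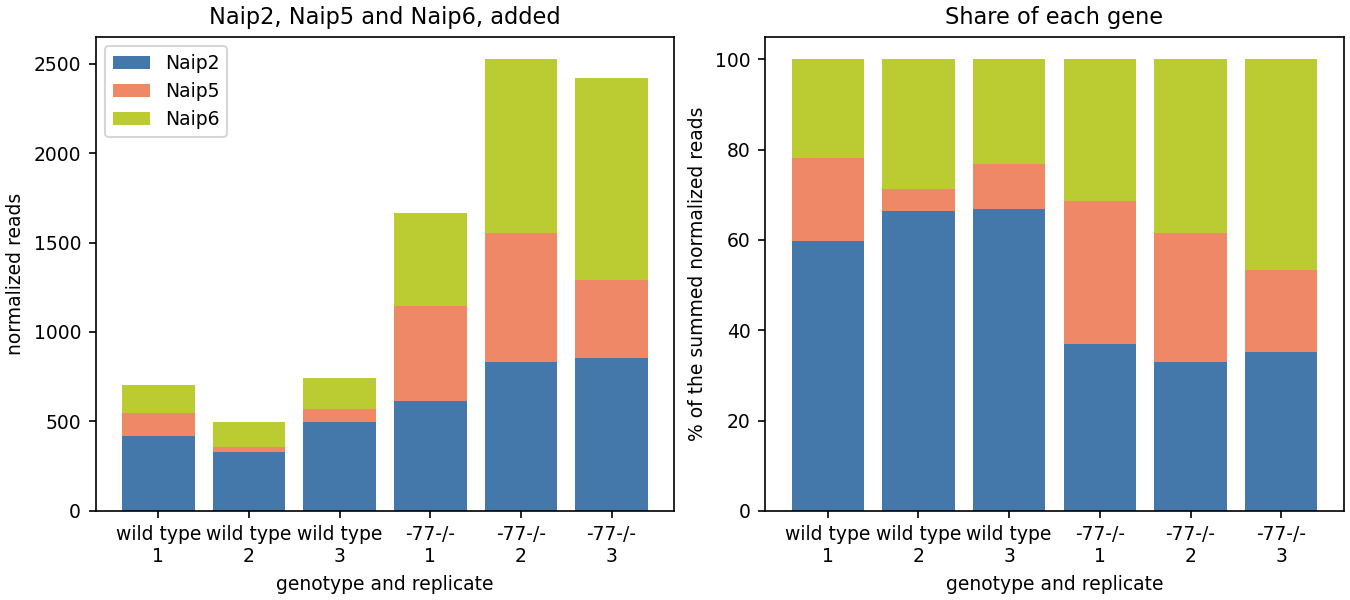
Normalized reads of Naip2, Naip5 and Naip6 stacked per library (left, linear axis from 0) and the share of each gene in that sum in percent (right), for wild type and -77-/- replicates 1 to 3. The sum is 499 to 741 in wild type and 1668 to 2525 in -77-/-, and the Naip2 share is 59.8% to 66.9% in wild type and 33.0% to 37.0% in -77-/-.

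The promoter windows of RefSeq (GRCm38.p6), 250 bases before and 50 after a start site, were read for each of the 10 genes. There were 12 windows, since Nlrp3 and Casp4 have 2 start sites each. The letters AGGAAGT on either strand are a core bound by ETS factors, the family of the myeloid factor PU.1. They occurred in 4 of the 12 windows, those of Nlrc4, Naip2, Naip5 and Pycard, and in 9.35% of all 32851 promoter windows. The motifs were chosen after these sequences had been read, so the window shares given here are no test. Nlrc4 held AGGAAGT at 2 places. These 4 windows are shown with the match in capitals, on the strand of the gene; on this strand each reads as the reverse complement.
Nlrc4 (chr17:74459059-74459358, minus strand): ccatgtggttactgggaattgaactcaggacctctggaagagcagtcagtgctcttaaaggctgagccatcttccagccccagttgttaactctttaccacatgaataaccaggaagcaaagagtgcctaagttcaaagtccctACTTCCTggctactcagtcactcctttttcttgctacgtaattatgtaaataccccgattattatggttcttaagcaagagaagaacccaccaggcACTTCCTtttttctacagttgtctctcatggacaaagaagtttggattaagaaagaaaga
Naip2 (chr13:100202073-100202372, minus strand): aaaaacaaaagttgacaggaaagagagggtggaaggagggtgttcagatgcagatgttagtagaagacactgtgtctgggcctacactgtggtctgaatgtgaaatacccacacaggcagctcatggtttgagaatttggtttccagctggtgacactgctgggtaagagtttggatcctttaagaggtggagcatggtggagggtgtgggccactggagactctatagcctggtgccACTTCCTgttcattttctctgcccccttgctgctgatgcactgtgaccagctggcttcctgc
Naip5 (chr13:100247287-100247586, minus strand): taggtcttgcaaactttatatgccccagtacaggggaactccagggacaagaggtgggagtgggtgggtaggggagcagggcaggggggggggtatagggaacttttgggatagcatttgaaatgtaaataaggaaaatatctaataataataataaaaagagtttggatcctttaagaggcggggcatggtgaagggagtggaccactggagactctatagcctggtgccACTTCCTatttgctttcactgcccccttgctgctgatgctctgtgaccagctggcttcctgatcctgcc
Pycard (chr7:127993818-127994117, minus strand): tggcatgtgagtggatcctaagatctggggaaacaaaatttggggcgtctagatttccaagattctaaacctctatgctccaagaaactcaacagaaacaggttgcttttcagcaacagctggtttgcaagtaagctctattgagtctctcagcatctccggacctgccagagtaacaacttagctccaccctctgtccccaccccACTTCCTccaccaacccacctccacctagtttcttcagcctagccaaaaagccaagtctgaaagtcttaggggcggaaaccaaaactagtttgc
In Naip2, Naip5 and Nlrc4 a match starts 12, 19 and 10 bases before the annotated start site. Naip2 and Naip5 share an unbroken run of 34 bases there, while the longest run that the Naip6 window shares with either is 8 bases. The core of interferon-response elements (GAAA followed, after any 2 bases, by another GAAA) was in 0 of the 12 windows and in 3.44% of all windows. TTGCNNAA, a C/EBP core, was in 2 windows (10.8% of all). A GATA core (TGATAA, or with A as its first base) was in 4 windows of 3 genes (18.6% of all windows). The NF-kappaB consensus was in 4 windows of 3 genes (8.46%). None overlapped an AGGAAGT match. A match is a description of the letters and not evidence of binding, and a missing match covers only these windows.

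The cytokines were the members with the fewest reads. Il1b, the precursor of interleukin-1 beta, had 1.88, 12.97 and 0 normalized reads in the wild type replicates and 90.5, 57.4 and 27.3 in the -77-/- replicates. Both groups were uneven, and the groups did not overlap. The means were 4.95 ± 7.01 and 58.4 ± 31.6, an 11.8-fold ratio (log2 fold change 3.96 with an SE of 1.22, adjusted p = 0.0209 in limma). The call ended in 5 of 14 alternatives: with a pseudocount of 0.1 (limma adjusted p = 0.0506), edgeR (0.0752), limma-voom (0.0534) and without -77-/- replicates 1 or 2 (0.0930 and 0.0861), with a range of 0.0091 to 0.0930.

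Il18, the precursor of interleukin-18, had 3.75, 0 and 0 normalized reads in the wild type replicates, or 4 reads in all, and 24.4, 13.6 and 19.6 in the -77-/- replicates. The groups did not overlap, but each wild type library was at or near the floor. The means were 1.25 ± 2.17 and 19.2 ± 5.41 (log2 fold change 3.55 with an SE of 1.35, adjusted p = 0.0578 in limma). The difference thus did not pass, and the part of sequencing depth in this was not tested. It passed in 1 of 14 alternatives, without wild type replicate 1 (limma adjusted p = 0.0432, with a range of 0.0432 to 0.155). In the authors' deposited table its adjusted p was 0.0778.

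**Figure D3:**
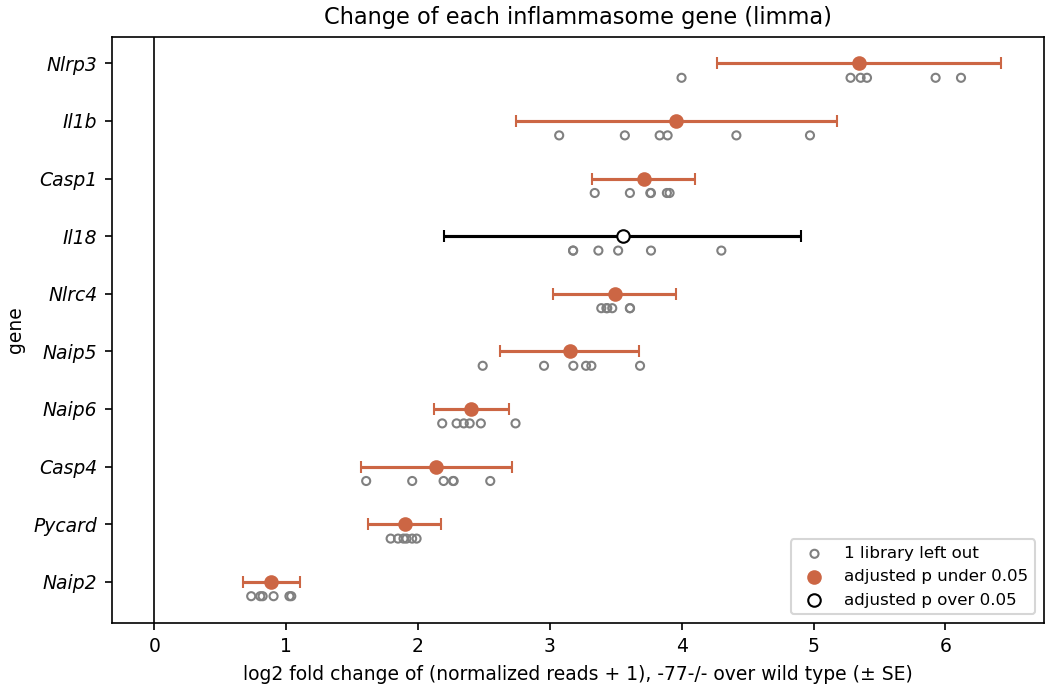
Log2 fold change of each gene (of log2(value + 1), -77-/- minus wild type) with its SE from limma, and below each the value with 1 library left out (open grey circles). The filled points, 9 of 10, have an adjusted p under 0.05; values run from 0.89 for Naip2 to 5.35 for Nlrp3, and each leave-one-out value is above 0.

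Levels of different genes were set side by side per kilobase of annotated exon (GENCODE M21, not the authors' annotation). In wild type, Naip2 came first at 85.7 normalized reads per kilobase, beyond the range of any other member. Pycard and Casp1 followed at 30.8 and 27.8, Naip6 at 22.9 and Naip5 at 14.499, with overlapping ranges between neighbours. Casp4 stood at 10.7, Nlrp3 at 5.79, Nlrc4 at 4.84, Il1b at 2.60 and Il18 at 1.21, again overlapping from one to the next. In -77-/- the order was led by Casp1, at 352 normalized reads per kilobase, whose libraries lay above those of each other member. Naip2, Nlrp3, Naip6, Pycard and Naip5 came next, between 158 and 108, and neighbours in that order overlapped. Nlrc4 at 56.5, Casp4 at 42.7, Il1b at 30.6 and Il18 at 18.6 closed it, neighbours overlapping. Per kilobase of coding sequence Pycard, whose annotated exons are mostly outside the coding part, came first in both genotypes.

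The lowest and highest library of a genotype differed between members. Wild type replicate 2 was the lowest wild type library for 6 of the 10 genes, Casp1, Casp4, Naip2, Naip5, Naip6 and Nlrc4. Of these, Naip2, Naip5 and Naip6 can share reads. The highest wild type library was replicate 1 for 4 genes, replicate 2 for 1 and replicate 3 for 5. No share over all genes stands beside these counts or those of -77-/- libraries below, so they are description only. The sum over the 10 genes was 963, 719 and 1013 in the wild type replicates and 3732, 4694 and 4301 in the -77-/- replicates. The summed monocyte and macrophage markers were 2658, 1951 and 3271 in the wild type replicates and 30542, 41935 and 33696 in the -77-/- replicates. On both sums wild type replicate 2 was thus the lowest wild type library and -77-/- replicate 2 the highest -77-/- library. The shared number pairs no libraries. Wild type replicate 2 was also lowest on the neutrophil, dendritic, eosinophil, basophil and mast cell, fetal liver macrophage and hepatocyte sums. On the lymphoid, megakaryocyte and erythroid sums it was not. Behind the marker counts that follow stand 16.9% of all genes tested as higher and 15.2% as lower. The dendritic cell markers summed to 883 to 1094 in wild type and 3518 to 3745 in -77-/-, with 6 of 9 higher and 1 lower. Neutrophil markers split, 5 higher and 5 lower of 13, and their sum, mostly Mpo, was 15157 to 26079 and 45453 to 49414. Without Mpo the sum was 10010, 6627 and 11331 in the wild type replicates and 8420, 8388 and 8657 in the -77-/- replicates. Lymphoid markers were higher in 8 of 8 tested, with sums of 929 to 1084 and 3286 to 5840, the highest in -77-/- replicate 1. That library was the highest for 4 of the 10 genes, Pycard, Il18, Il1b and Nlrc4, and -77-/- replicate 2 for another 4. Among -77-/- libraries, replicate 1 was also highest on the dendritic, erythroid, megakaryocyte, and eosinophil, basophil and mast cell sums. Markers of resident fetal liver macrophages were sparse: of 6 in the table C1qc was at 0 in each wild type library and at 0, 4.86 and 4.27 in the -77-/- replicates, and 1 of 4 tested was higher, Emr1, which is also on the monocyte and macrophage list. Eosinophil, basophil and mast cell markers were lower in 3 of 6, megakaryocyte markers higher in 1 and lower in 2 of 7, and hepatocyte markers did not pass in 3 of 3, with the highest sum, 858, in -77-/- replicate 3. The part of these cell types in the inflammasome results was not tested.

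Other genes of the pathway were taken from 6 lists with 87 entries, of which 79 were in the table and 75 were tested. Of these 42 were higher and 3 lower, and 30 did not pass, where 16.9% and 15.2% of all genes tested were higher and lower; the same shares stand behind the counts per list. Some list genes reached the required mean of 10 through -77-/- alone, among them Nlrp1b, Nlrp1c-ps, Nod1, Nlrc5, Zbp1, Gbp2, Gbp3 and Pydc4. Such genes could hardly be called lower, which bears on the counts and medians of their lists. Their fold changes also depend on the pseudocount: that of Nlrp1b was 9.55 with 0.1 and 3.99 with 5. Sensors outside the 10 genes had 4 higher of 6 tested, with a median log2 fold change of 3.57. Aim2, the sensor of cytosolic DNA, rose from 166 ± 40.1 to 1029 ± 145 normalized reads (log2 fold change 2.65 with an SE of 0.24, adjusted p = 7.5e-07 in limma). Nlrp1b, which responds to bacterial proteases, had no read in wild type and 74.8 ± 6.06 in -77-/-, at least 72.9-fold higher against a floor of 3 reads over the group. Nlrp1c-ps, a pseudogene beside it, was at least 34.2-fold higher, and its call ended without -77-/- replicate 1 (limma adjusted p = 0.0634) or replicate 2 (0.0527). With either of those libraries left out the count of sensors higher was 2. Among other NOD-like receptors 3 of 5 were higher (median 1.86). Nod1, a sensor of bacterial peptidoglycan, had no read in wild type and was at least 52.9-fold higher, Nlrc5, an activator of class I antigen presentation genes, had 3 reads against 126, a ratio of 38.9 (exact 95% interval 13 to 191), and Nlrx1, a mitochondrial family member, rose from 79.4 ± 20.1 to 252 ± 5.83. Without -77-/- replicate 2 only Nlrx1 of these passed (count 1), and without replicate 3 the call of Nlrc5 ended (limma adjusted p = 0.0647).

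Downstream of the caspases, 6 of 12 genes of pore formation and cell death were higher and 1 lower, with a median log2 fold change of 0.56. Gsdmd, which forms the pore, rose from 101 ± 9.57 to 767 ± 194 (log2 fold change 2.89 with an SE of 0.27, adjusted p = 8.7e-07 in limma). Mlkl, the effector of necroptosis, rose from 48.2 ± 30.5 to 485 ± 64.2, and Zbp1, a sensor of Z-form nucleic acid, from 5.46 ± 4.87 to 172 ± 80.6. Ninj1 and Dfna5, which act in membrane rupture and pore formation, had log2 fold changes of 0.48 and 0.34 and did not pass.

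Licensing and regulatory genes were higher in 10 of 19 cases (median 1.03). The guanylate-binding proteins Gbp2 and Gbp3 rose from 1.92 ± 1.88 to 196 ± 61.5 and from 7.49 ± 7.48 to 531 ± 94.3, and Pydc4, a gene of the pyrin domain family, had no read in wild type and was at least 44.0-fold higher. Of priming receptors and factors, which switch on transcription of the pathway, 10 of 16 were higher and 1 lower (median 1.71). Tlr2 rose from 43.3 ± 8.30 to 733 ± 116, Tlr4 from 20.2 ± 10.1 to 362 ± 18.3, and the adaptor Ticam2 from 26.6 ± 22.7 to 496 ± 96.2. Rela, a subunit of NF-kappaB, fell from 829.7 ± 7.87 to 461 ± 21.5 (log2 fold change -0.85 with an SE of 0.17, adjusted p = 0.0014 in limma).

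Genes of interleukin-1 and interleukin-18 signalling rose in 9 of 17 cases and fell in 1 (median 0.93). The receptors Il1r1 and Il1r2 and the inhibitory receptor Sigirr had log2 fold changes of 2.79, 2.20 and 2.56, with limma adjusted p = 0.0251, 0.0296 and 0.0252. These calls were weak: that of Il1r1 ended in 5 leave-one-out fits, that of Il1r2 in 5 and with limma-voom, and that of Sigirr in 4 and with edgeR. Without wild type replicate 2, -77-/- replicate 2 or -77-/- replicate 3 the count of genes higher was 4. Il1rl1, the receptor of interleukin-33, was the gene of this list that fell, from 318 ± 16.4 to 14.3 ± 12.5 (log2 fold change -5.32 with an SE of 1.08, adjusted p = 0.0032 in limma), and its call ended with a pseudocount of 0.1 (0.0615). Il1a had 0, 12.0 and 0 normalized reads in the wild type replicates and 0, 0 and 5.12 in the -77-/- replicates and was too low to test.

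**Figure D4:**
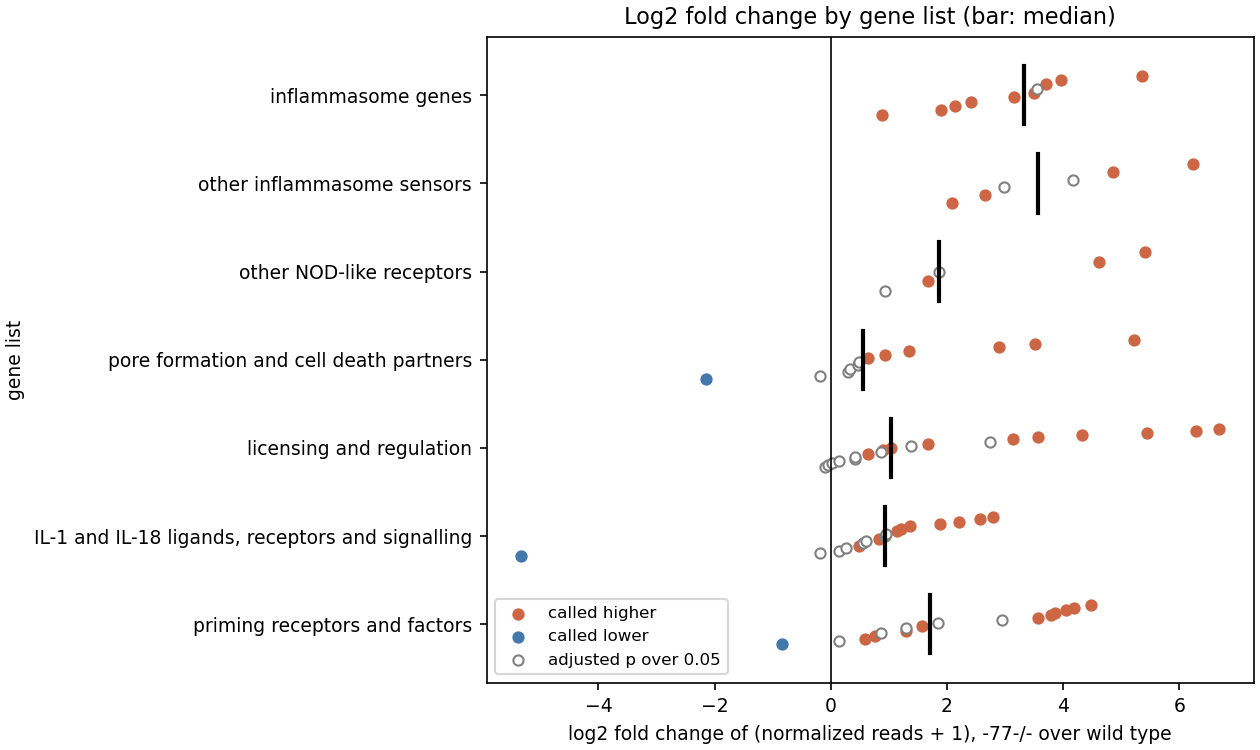
Log2 fold change (of log2(value + 1), -77-/- minus wild type) of each tested gene in the 10 inflammasome genes and in 6 other lists of the pathway, with a black bar at the list median. Red points passed as higher, blue as lower and open points did not pass; medians are 3.32 for the 10 genes and 0.56 to 3.57 for the other lists.

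The mean profile of the 10 genes over the 6 libraries, each gene centred on its own mean on the log2(value + 1) scale, was closest to those of Tpd52, Appl1, Hspa1b, Msn and Klf4, with Pearson's r of 0.999 to 1.00 across 6 libraries. Klf4 had 246 ± 97.6 normalized reads in wild type and 3906 ± 343 in -77-/-, and Appl1 had 599 ± 72.6 and 1532 ± 80.7. The measure ignores the size of the change and rests mainly on the step between genotypes, since 1217 of 15811 genes had r above 0.95.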

How the data were processed

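RNA of 6 libraries, 3 per genotype, was analysed from 1 deposited table. The tools named per the submitters' processing notes are STAR 2.5, Bowtie, DESeq2 and RSEM 1.2.31, and the build is mm9. Not given in the sources used here are their roles, the annotation and the strand setting. The deposited library columns hold a normalized signal, in which the authors scaled the reads of each gene by a factor of the library. In each library 100% of values came out as whole reads (tolerance 0.01 of a read) once that factor was undone, and edgeR on these reads called 2317 genes higher (14.6% of those tested) and 2271 lower. If RSEM made them, they are rounded estimates, and a 0 may be a failed estimate. The deposited log2 fold changes of the authors were printed for comparison, and their deposited p-values, recorded as a score since 8 rows have cells moved sideways, likewise. Those rows were left out of the 19444, leaving 19436 genes.

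limma 3.58.1 (R 4.3.3, trend and robust empirical Bayes) tested log2(value + 1) for genes with a mean of at least 10 in the higher genotype, with Benjamini-Hochberg adjustment. Adding 1 shrinks the fold changes of low genes, while a library near 0 can carry a mean of logs past the log2 ratio of means, as in Nlrp3 and Il1b. edgeR 4.0.16, DESeq2 1.42.0 and limma-voom on the recovered reads were alternatives, as were pseudocounts, filters, TMM scaling and leaving out each library. The test was checked on simulated data in which only a small part of the genes changed, and none with few reads. That check does not cover low genes such as Il18, or data where many genes move. Only counting error enters the intervals and floors, since reads were pooled over the libraries of a genotype. The spread between libraries is left out, so the intervals are too narrow for a comparison of genotypes. These reads also carry no molecular identifiers. Naip coding sequences were aligned with mafft 7.526.

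The members, gene lists and tests were chosen with earlier results of these data known, and the motifs after the promoter sequences had been read, so no list is independent evidence. Text names the 10 members and, from each list, up to 3 called genes per direction with the largest change and those against the list's direction; Ninj1, Dfna5, Il1a and marker genes fall outside it and were chosen after their values were seen. A result that the rule would name is not reported here. Replicate numbers follow the sample records and pair no libraries. No 2 libraries agreed within counting error (smallest chi-square per degree of freedom 17.2).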

Additional observations from a re-analysis of the deposited data

How the results depend on the processing

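Over 14 alternative settings for 31 named genes and the Naip sum, 419 of 448 values kept their direction and their side of the threshold, and none reversed. The number of inflammasome genes higher was 7 to 10 across leave-one-out fits, where 12.5% to 17.5% of all genes tested were higher. It was 8 with a pseudocount of 0.1, with edgeR and with limma-voom (15.7%, 14.6% and 16.1% of all genes tested). It was 9 in the other settings (14.0% to 17.9%) and by the authors' deposited table (16.4% of its genes). For the Naip sum the log2 fold change was 1.59 to 1.95 with 1 library left out. Leave-one-out counts of genes higher ran from 2 to 4 for other sensors and 1 to 3 for other NOD-like receptors. For interleukin-1 and interleukin-18 genes they ran from 4 to 8. Each of these fits had fewer libraries, and the same 12.5% to 17.5% of all genes tested stand behind the counts. With all libraries 6, 5 and 17 genes of these lists were tested. With a pseudocount of 0.1 the count of lower genes in the last list was 0 instead of 1; Il1rl1 has a library at 0, and the cause was not tested. Pseudocounts of 0.1 and 5 moved the log2 fold change of Il18 from 3.55 to 5.80 and 1.98, and that of Il1b from 3.96 to 5.25 and 2.76, as they do for genes with libraries at 0. DESeq2 gave 4.59 for Nlrp3. No paired analysis was possible because the labels give the libraries no replicate numbers, and the numbers used here are only names in record order. Il18 had only 4 reads in wild type.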
